A study of Mus musculus with 4 samples.

Results

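The genes described here encode 9 secreted matrix proteins: the thrombospondins Thbs1, Thbs2 and Thbs3, the SPARC proteins Sparc and Sparcl1, tenascin-C (Tnc), osteopontin (Spp1), fibronectin (Fn1) and periostin (Postn). They were read by name from a table of 41457 genes, and each name matched 1 row. Thbs1 was picked from its counts, which were higher in the mutant lines than in control, so its values are a description and carry no test. The other members were listed for their kinship or function, and 7 of the 9 (all but Sparcl1 and Postn) passed the filter on low counts.

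Mouse colon tumour cells were kept in RPMI medium and their poly(A) RNA was sequenced. The groups were the control cells and 3 ENU mutant lines named M8, M32 and M83, which share 1 genotype label. ENU (N-ethyl-N-nitrosourea) is an alkylating mutagen that mostly makes point mutations. The labels mention triplicates, but each of the 4 samples has 1 column of counts, called a library here, and the sources used here give neither the mutated genes nor the parent culture nor the name of the tumour line.

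Matricellular proteins are secreted into the matrix and act mainly on signalling and adhesion between cells and matrix, more than as structural fibres. Thrombospondin-1 binds the receptors CD36 and CD47, is cleared by LRP1, limits the growth of blood vessels and can activate latent TGF-beta. Tenascin-C, osteopontin and periostin bind integrins, SPARC binds collagen, and fibronectin is a fibril-forming adhesion protein that is grouped here with them. In colon tumours these proteins are known mostly as products of the stroma.

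Control had 25818148 counts in all, M8 had 28879954, M32 had 27312207 and M83 had 28011773. Levels are given as raw counts and as CPM, the usual share of a library's counts put on a common scale, after scaling with TMM factors between 0.986 (M8) and 1.03 (M83). Levels of different genes are compared only as CPM per kb of exon. The exon length joins all annotated exons of a gene, so it can exceed the length of the transcripts present. The ratio of 1 line to control comes with its exact 95% Clopper-Pearson interval, which covers counting error only. The interval leaves out variation between repeats, which 1 library a side cannot show. Reads without molecular identifiers are not independent molecules, so it can also be too narrow for counting error. A ratio was called 2-fold higher or lower when it reached that size with at least 50 counts in the higher library and an interval that left out 1. edgeR's quasi-likelihood F-test compared the 3 lines together with control. Its p-values rest on the spread of these lines, pooled in part with that of all tested genes. The SE (standard error) given with a log2 difference was derived from the fitted difference and the F statistic of this test. It therefore restates the test and is no separate measure of spread. The lone control was taken to vary like the lines. Each comparison uses the same control library, so an unusual value there would shift all 3 lines alike.

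Of the 7 members that passed the filter, Thbs1, Thbs2, Thbs3 and Sparc were above control in every line, and Spp1 was below control in every line. Over all 13576 tested genes, 23.3% were above control in every line and 21.3% were below it. Without Thbs1, 3 of 6 were above and 1 of 6 below. In M8, Thbs1 and Tnc were at least 2-fold higher and no member was 2-fold lower, beside 2.97% and 1.64% of all tested genes. In M32, Thbs1 was 2-fold higher and Tnc and Spp1 were 2-fold lower, beside 3.88% and 0.921% of tested genes. In M83, Thbs1 and Tnc were 2-fold higher and Spp1 was 2-fold lower, beside 4.17% and 1.02%. With so few members, these counts describe single genes. In the order of levels, every pair of neighbouring libraries differed beyond counting error for each of the 7 members, and the closest pairs were Fn1 in M32 and M83 and Spp1 in control and M8, both at a ratio of 1.03. In the edgeR fit, 0 of the 6 members other than Thbs1 had an adjusted p under 0.05, 1 (Thbs3) had an unadjusted p under it, and DESeq2 also called 0. That fit called 1 of all tested genes (0.00737%), which is no member, and 448 had an unadjusted p under 0.05. The median log2 difference of the lines from control was 0.53 over the 6 members and 0.02 over all tested genes.

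**Figure D1:**
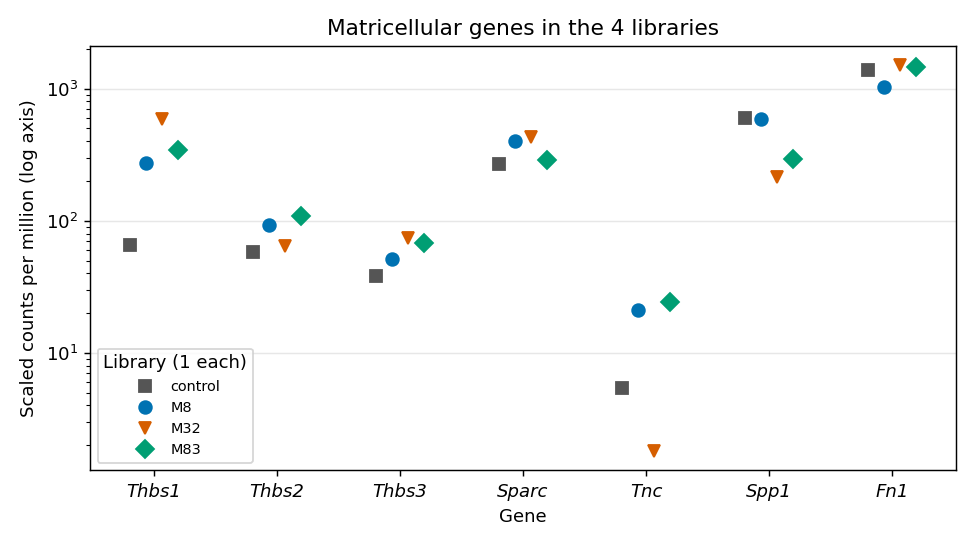
Scaled CPM (log axis) of the 7 members that passed the filter, 1 symbol for each of the 4 libraries and no error bars, since each library stands alone. Thbs1 runs from 66.0 in control to 586 in M32, and Tnc is lowest in M32 at 1.81.

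**Figure D2:**
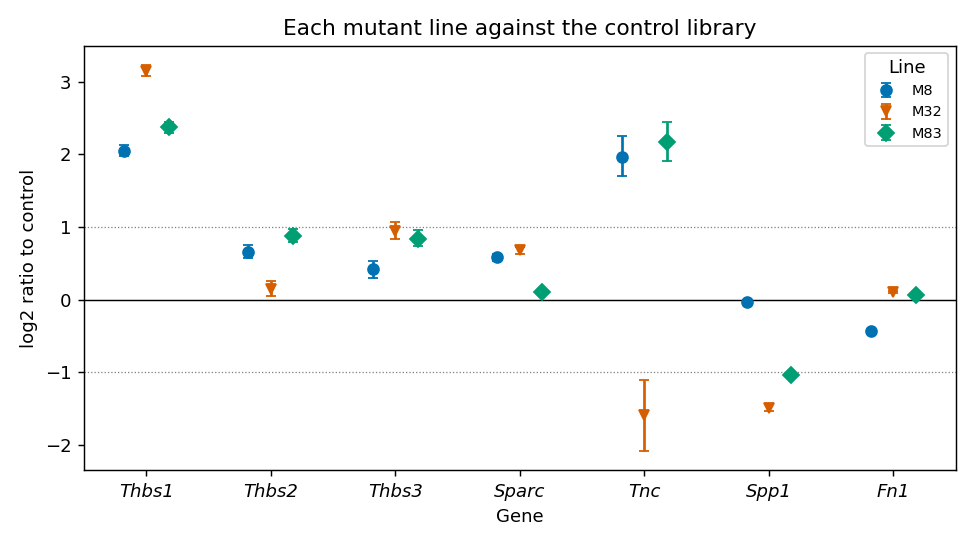
The log2 ratio of each mutant line to the control library for the 7 members, with the exact 95% Clopper-Pearson interval as bars (counting error only) and dotted lines at 2-fold. Tnc lies above control in M8 and M83 and below it in M32, while Fn1 stays within 2-fold in every line.

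The bases upstream of the transcript start were read for the members from RefSeq's mouse table (GRCm38.p6), which held entries for Thbs2, Thbs3, Sparc, Tnc, Spp1 and Postn. Thbs1, Sparcl1 and Fn1 had no entry. The windows of Thbs2 and Thbs3 are shown because these paralogs were both above control in every line. Those of Tnc and Spp1 are shown because these members had the largest ratios between lines. Each window holds the 250 bases before a RefSeq start, 5′ to 3′ on the gene's strand, and none of its bases lies in an annotated exon. The Thbs2 window is chr17:14694263-14694512 and the Tnc window is chr4:64047016-64047265, both on the minus strand. The Thbs3 window is chr3:89214930-89215179 and the Spp1 window is chr5:104434861-104435110, both on the plus strand. Tnc and Spp1 each had a further RefSeq start. Its window is not shown, since 79 (Tnc) and 250 (Spp1) of its bases lie in annotated exons. The Thbs2 and Spp1 starts used here lie 27 and 7 bases from the annotated gene starts. Capitals mark matches, on either strand, to the letters of 7 motifs. The TATA box was searched as TATAAA. The GC box was searched as GGGCGG. An AP-1 element was searched as TGANTCA, a TEAD element as GGAATG, an E-box as CACGTG and a RUNX element as TGTGGT. The CCAAT box was searched by the letters of its name.
Thbs2: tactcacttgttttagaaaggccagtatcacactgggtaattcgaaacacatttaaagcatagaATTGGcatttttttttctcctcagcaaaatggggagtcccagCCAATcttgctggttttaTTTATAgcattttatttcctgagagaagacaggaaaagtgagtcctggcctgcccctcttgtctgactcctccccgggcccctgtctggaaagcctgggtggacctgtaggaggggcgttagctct
Thbs3: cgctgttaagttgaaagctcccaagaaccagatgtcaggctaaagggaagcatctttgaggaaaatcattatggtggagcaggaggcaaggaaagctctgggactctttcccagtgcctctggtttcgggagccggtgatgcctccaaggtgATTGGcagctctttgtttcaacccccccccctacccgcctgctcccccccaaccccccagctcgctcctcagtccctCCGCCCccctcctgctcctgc
Tnc: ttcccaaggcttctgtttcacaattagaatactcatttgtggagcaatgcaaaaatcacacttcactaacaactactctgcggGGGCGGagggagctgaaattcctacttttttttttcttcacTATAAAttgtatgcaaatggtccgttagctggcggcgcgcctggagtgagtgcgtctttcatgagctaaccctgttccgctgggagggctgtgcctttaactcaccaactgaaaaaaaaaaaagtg
Spp1: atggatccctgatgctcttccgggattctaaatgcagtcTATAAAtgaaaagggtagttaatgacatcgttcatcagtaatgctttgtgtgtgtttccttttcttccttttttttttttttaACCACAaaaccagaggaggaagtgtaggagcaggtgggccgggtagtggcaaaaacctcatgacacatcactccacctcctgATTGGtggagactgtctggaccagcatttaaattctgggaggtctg

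The Thbs2 window held the TATA box letters on the opposite strand (first base at -126 from the RefSeq start) and CCAAT boxes on both strands. The Thbs3 window held a GC box and a CCAAT box, both read on the opposite strand. Tnc had the TATA box letters (at -126) and a GC box on its own strand. The Spp1 window held the TATA box letters on its own strand (at -211), and a RUNX match and a CCAAT box on the other. Among 32851 RefSeq windows of this length, a TATA box was present in 12.4%, a GC box in 32.7%, a RUNX match in 14.0% and a CCAAT box in 33.8%. No match to the AP-1, TEAD or E-box letters was found in the 4 windows, and these letters occurred in 6.75%, 12.6% and 6.02% of all windows. No listed motif was present in all 4 windows. The CCAAT letters were common to Thbs2, Thbs3 and Spp1, and the TATA box letters to Thbs2, Tnc and Spp1. The matches are descriptions of the letters and were not tested as binding sites.

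Thbs1 (ENSMUSG00000040152, chromosome 2, 118111876 to 118127133, plus strand, GRCm38) encodes thrombospondin-1. Control had 1683 counts of it, M8 7757, M32 15903 and M83 9884, or 66.0, 272, 586 and 342 CPM. Every line lay above control, and M32 was the highest of the 3. M8 had 4.13 times the control level (interval 3.92 to 4.36), M32 8.89 times (8.45 to 9.35) and M83 5.18 times (4.92 to 5.46). Ordered by log2 ratio from the highest of 13576 tested genes, Thbs1 stood at rank 272 for M8, 92 for M32 and 220 for M83. M32 exceeded M8 by 2.15-fold (2.09 to 2.21) and M83 by 1.72-fold (1.67 to 1.76), so that every pair of neighbours in the order control, M8, M83, M32 differed beyond counting error. The mean of the lines was 400.2 ± 165 CPM (SD, n = 3 lines). At least 2-fold higher counts in all 3 lines, which Thbs1 had, were found in 112 tested genes. Thbs1 shares 208 exon bases (3.42%) with Gm29233 on the opposite strand, which had 0, 2, 1 and 0 counts.

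The other thrombospondin genes had smaller ratios to control. Thbs3 had the same order of libraries as Thbs1, and Thbs2 had another. Thbs2 (ENSMUSG00000023885, chromosome 17, 14665500 to 14694235, minus strand) encodes thrombospondin-2, the trimeric paralog closest to thrombospondin-1. Its counts were 1493 (control), 2629 (M8), 1756 (M32) and 3119 (M83), and its scaled levels were 58.5, 92.3, 64.8 and 108 CPM. M32, the line with the most Thbs1, had the least Thbs2 of the 3 lines and lay close to control. The ratios were 1.58 (1.48 to 1.68) in M8, 1.11 (1.03 to 1.19) in M32 and 1.84 (1.73 to 1.96) in M83, and the lines' mean was 88.3 ± 21.8 CPM (SD, n = 3 lines). Against control the log2 difference was 0.59 (SE 0.326, edgeR adjusted p = 1.000), so the fit did not separate the lines from control. The 689 tested genes of chromosome 17 had median log2 ratios of 0.20, 0.17 and 0.18 in M8, M32 and M83, beside 0.66, 0.15 and 0.88 for Thbs2, and the part of this chromosome-wide level in the Thbs2 ratios was not tested.

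Thbs3 (ENSMUSG00000028047, chromosome 3, 89215180 to 89226837, plus strand) encodes a pentameric thrombospondin best known from cartilage and muscle. The libraries held 974 (control), 1452 (M8), 2003 (M32) and 1979 counts (M83), which is 38.2, 51.0, 73.9 and 68.4 CPM. All 3 lines lay above control, with M32 and M83 close together and M8 lowest among the lines. The ratio was 1.34 (1.23 to 1.45) in M8, 1.93 (1.79 to 2.09) in M32 and 1.79 (1.66 to 1.94) in M83. The log2 difference of the lines was 0.76 (SE 0.290) with an edgeR unadjusted p of 0.0373 and an adjusted p of 1.000 over all tested genes. Thbs3 shares 318 exon bases (6.59% of its exon length) with Mtx1 on the opposite strand, which encodes a protein of the mitochondrial outer membrane. Mtx1 had 1416, 1141, 1227 and 1420 counts and was below control in every line on the CPM scale. No source used here gives the strand setting of the counting, so reads in the shared bases cannot be told apart.

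Summed as CPM per kb, the thrombospondins came to 27.1 in control, 68.8 (M8), 121 (M32) and 85.9 (M83), or 2.53, 4.47 and 3.17 times control. The 3 genes made up similar parts of that sum in control, with Thbs1 at 40.0%, Thbs2 at 30.8% and Thbs3 at 29.2%. In the lines Thbs1 took 65.3% (M8), 79.7% (M32) and 65.5% (M83), a description that follows from how Thbs1 was picked. Thbs2 took 7.63% of the sum in M32, although its own CPM there was not below control. The remaining family genes were near 0. Thbs4 had 2 counts in M83 and 0 in the other libraries, and Comp, the cartilage oligomeric matrix protein gene, had 0, 11, 4 and 3 counts.

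**Figure D3:**
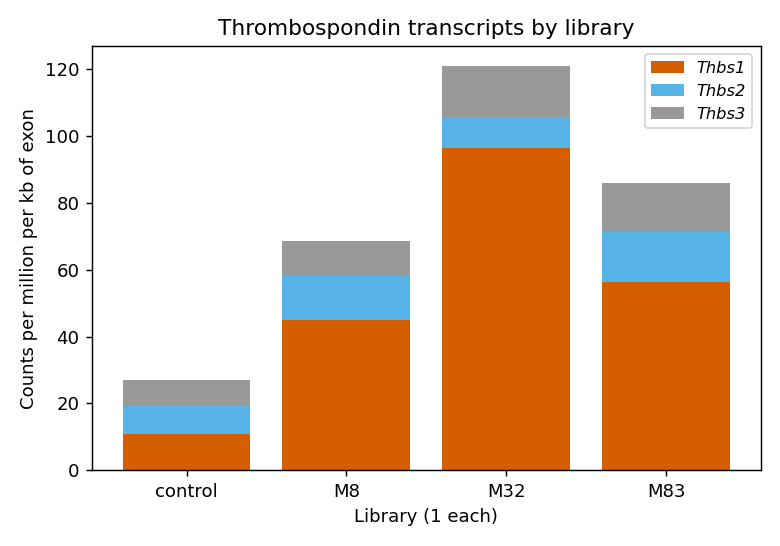
Stacked bars of CPM per kb of exon for Thbs1, Thbs2 and Thbs3 in each library (1 library a bar, no error bars). The total is 27.1 in control and 121 in M32, and the Thbs1 segment takes 79.7% of the M32 bar.

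Sparc (ENSMUSG00000018593, chromosome 11, 55394500 to 55423183, minus strand) encodes a calcium- and collagen-binding protein also called osteonectin. Control had 6870 counts, M8 11480, M32 11662 and M83 8359, or 269, 403, 430.0 and 289 CPM. M8 and M32 were similar to each other and higher than M83, which was close to control. The ratios were 1.50 (1.45 to 1.54), 1.60 (1.55 to 1.65) and 1.07 (1.04 to 1.11) in M8, M32 and M83. The lines' log2 difference from control was 0.47 (SE 0.288, edgeR adjusted p = 1.000). Sparcl1 (ENSMUSG00000029309, chromosome 5, 104079111 to 104113733, minus strand), which encodes the related protein hevin, had 1 count in M32 and 0 in the other 3 libraries.

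Tnc (ENSMUSG00000028364, chromosome 4, 63959785 to 64047015, minus strand) encodes tenascin-C, a large hexameric protein that appears in the matrix during wound repair and in tumours. Its counts were 138 (control), 602 (M8), 49 (M32) and 706 (M83), or 5.41, 21.1, 1.81 and 24.4 CPM. M8 and M83 lay above control and M32 below it. The ratio to control was 3.91 (3.24 to 4.74) in M8 and 4.51 (3.76 to 5.46) in M83, while control was 2.99-fold (2.15 to 4.24) above M32. Between lines, M83 exceeded M32 by 13.5-fold (10.1 to 18.4) and M8 exceeded it by 11.7-fold (8.74 to 16.0). Because the lines pointed in opposite directions, their log2 difference from control, 1.55, had an SE of 1.24 (edgeR adjusted p = 1.000). Tnc shares 176 exon bases (2.26%) with the opposite-strand transcript 8030451A03Rik, which had 18, 57, 24 and 71 counts. As for Tnc, M32 was lower than M8 and M83, but this transcript was above control in every line (log2 ratio 0.30 in M32). Without the strand setting of the counting, reads in the shared bases cannot be told apart.

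Spp1 (ENSMUSG00000029304, chromosome 5, 104435118 to 104441050, plus strand) encodes osteopontin, a phosphoprotein that binds integrins and CD44. Control had 15381 counts, M8 16701, M32 5833 and M83 8482, or 603, 587, 215 and 293 CPM. Control and M8 were nearly level, and M32 and M83 were the low libraries. The ratio in M8 was 0.973 (0.952 to 0.995). Control exceeded M32 by 2.80-fold (2.72 to 2.89) and M83 by 2.06-fold (2.00 to 2.11). The M83 value sits at the edge of the 2-fold rule, and the call ended when libraries were scaled by their size alone (log2 ratio -0.98 in place of -1.04). The log2 difference of the lines was -0.72 (SE 0.502, edgeR adjusted p = 1.000), and -1.25 without M8. An overlapping model on the same strand, Gm42793, shares 18.8% of the exon bases of Spp1 and had between 8 and 19 counts. Of the 31-base words in Spp1 transcripts, 14.3% also occur in another gene's transcripts, all of them in Gm42793, against at most 1.87% (Fn1) for the other members.

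Fn1 (ENSMUSG00000026193, chromosome 1, 71585520 to 71653200, minus strand) encodes fibronectin and had more counts than any other member. Control had 35585 counts, M8 29388, M32 40792 and M83 42142, or 1395, 1032, 1504 and 1458 CPM. M8 was the lowest library, at 0.740 (0.729 to 0.752) of control, and the other 3 lay close together. The ratios in M32 and M83 were 1.08 (1.06 to 1.09) and 1.04 (1.03 to 1.06), and the order of these lines changed with library-size scaling (1494 CPM in M32 and 1505 in M83). The lines' log2 difference from control was -0.07 (SE 0.266, edgeR adjusted p = 1.000). Postn (ENSMUSG00000027750, chromosome 3, 54361109 to 54391037, plus strand), the periostin gene, had 2 counts in M83 and 0 elsewhere. Where no count was found the true level can still reach the equivalent of 3 counts, which is 0.118 CPM in control, 0.105 in M8 and 0.111 in M32.

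Compared per kb of exon, Spp1 was the most abundant member in control at 366 CPM per kb, ahead of Fn1 at 119, Sparc at 71.1, Thbs1 at 10.9, Thbs2 at 8.36, Thbs3 at 7.92 and Tnc at 0.696. M8 had Spp1 (356) ahead of Sparc (106), Fn1 (88.3) and Thbs1 (44.9). In M32 the 4 leading members lay close together, with Spp1 at 131, Fn1 at 129, Sparc at 114 and Thbs1 at 96.6. M83 had Spp1 at 178, Fn1 at 125, Sparc at 76.3 and Thbs1 at 56.3. The share of Spp1 in the members' summed CPM per kb was 62.6% (control), 57.2% (M8), 26.4% (M32) and 38.0% (M83), while that of Thbs1 was 1.86%, 7.21%, 19.5% and 12.0%. Together the 9 genes held 0.241%, 0.242%, 0.286% and 0.267% of all counts in control, M8, M32 and M83. The members' share of all counts thus stayed within this range. On the per kb scale, Spp1 led clearly in control and M8 and shared the lead with Fn1 and Sparc in M32. This order depends on the joined exon lengths, which were 1648 bases for Spp1, 11685 for Fn1 and 3788 for Sparc. Lengths of single transcripts were not tried.

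Among receptors of thrombospondins, 14 of 18 listed genes were tested, with 6 above and 2 below control in every line and a median log2 difference of 0.06. For this list and those that follow, the shares over all tested genes were 23.3% above and 21.3% below, with a median of 0.02. Lrp1, the clearance receptor, had 36447, 51809, 64070 and 57292 counts in control, M8, M32 and M83 (log2 difference 0.52, SE 0.230, edgeR adjusted p = 1.000). Vldlr, a lipoprotein receptor that binds thrombospondins, was at 0.59 (SE 0.330), and Stim1, a calcium sensor, at 0.58 (SE 0.272). The receptor genes below control in every line were Sdc4, a heparan sulfate syndecan (-0.13, SE 0.232), and Cacna2d1, a calcium channel subunit (-0.25, SE 0.275). Cd47 had 2768, 3143, 2860 and 2433 counts. Cd36 had 6 counts in M8 and 0 elsewhere, so that this receptor was near the floor in all 4 libraries.

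Receptors of the other members gave 7 above and 1 below among 11 tested of 20 listed, with a median of 0.40. The genes furthest above were Itgb5, an integrin subunit that pairs with alpha-v (0.66, SE 0.381), Tlr4, a pattern receptor (0.72, SE 0.411), and Sdc2 (0.47, SE 0.232). Cd44, the osteopontin and hyaluronan receptor, had 10647, 14222, 10050 and 18765 counts and lay below control only in M32. Among the genes of latent TGF-beta, 13 of 16 were tested, 6 were above and 0 below, and the median was 0.36. Ltbp2 (1.12, SE 0.454) and Ltbp1 (0.36, SE 0.226) encode latent TGF-beta binding proteins, and Tgfbr2 (0.65, SE 0.261) a TGF-beta receptor.

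TGF-beta and SMAD targets had 7 above and 1 below of 13 tested, with a median of 0.48. Acta2, smooth muscle actin, had 6 (control), 199 (M8), 474 (M32) and 53 counts (M83), placing the lines in the order M83, M8, M32. Col1a1, a fibrillar collagen chain, had 10970, 25288, 33405 and 32552 counts (log2 difference 1.33, SE 0.270, edgeR adjusted p = 1.000, DESeq2 adjusted p = 0.00502). Junb, an AP-1 subunit, was below control in every line, most of all in M32 (log2 ratio -1.14). For YAP/TEAD targets, 7 were above and 2 below of 18 tested from 22 listed, and the median was 0.21. Lats2 (0.57, SE 0.299), Crim1 (0.66, SE 0.299) and Gadd45b (0.40, SE 0.283) were above, and Cyr61 (-0.51, SE 0.257) and Dock5 (-0.26, SE 0.207) below.

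Transcription factors known to act on Thbs1 had 5 above and 4 below of 18 tested from 20 listed, with a median of -0.03. These counts were near the shares of all tested genes, 23.3% above and 21.3% below. Egr1, an immediate early factor, had 18871 (control), 8137 (M8), 3253 (M32) and 12461 counts (M83), with M32 lowest and control highest. Jun, an AP-1 subunit, had 2990, 2413, 1975 and 2473 counts (log2 difference -0.53, SE 0.216). Atf1 was level with control in M8 and M32 (-0.00 and -0.01) and at -0.87 in M83. Klf4 (0.85, SE 0.413), Stat3 (0.54, SE 0.321) and Smad3 (0.42, SE 0.226) were above control in every line.

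Other matricellular genes beyond the members had 10 above and 1 below among 18 tested of 32 listed, with a median log2 difference of 0.99, or 0.77 with Comp at its bound. Tnxb, tenascin-X, had 558 (control), 1485 (M8), 1485 (M32) and 7287 counts (M83), so M83 was highest, as for Tnc. Fbln5, an elastic fibre protein, had 599, 1519, 4718 and 4190 counts (log2 difference 2.40, SE 0.685, edgeR adjusted p = 1.000, DESeq2 adjusted p = 0.00286). Wisp2 (also named Ccn5), a CCN family gene, had 8, 95, 117 and 49 counts. Ctgf (Ccn2) had 1456, 1580, 3557 and 2530 counts, whereas Cyr61 (Ccn1) had 14942, 9407, 12958 and 12212 and was the list's only gene below control in every line. Proteases and crosslinkers had 5 above and 1 below of 12 tested from 17 listed, with a median of 0.31. Tgm2, a transglutaminase that crosslinks fibronectin, had 685, 2072, 2078 and 1328 counts (1.28, SE 0.359), Htra1 was at 1.00 (SE 0.617), and Bmp1, a procollagen protease, was at 0.53 (SE 0.259).

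Collagens and proteoglycans that members bind had 8 above and 0 below of 10 tested from 11 listed, with a median of 0.75. Col3a1 had 1748 (control), 7748 (M8), 12998 (M32) and 2047 counts (M83), so M83 was close to control here as it was for Sparc. Fbn1, fibrillin-1, had 200, 453, 536 and 532 counts (1.20, SE 0.304). Over all lists, 114 different genes that are no members were tested, of which 54 (47.4%) were above control in every line and 10 (8.77%) below, beside 23.3% and 21.3% of all tested genes, with a median of 0.28. In edgeR 0 of the 114 had an adjusted p under 0.05 and 14 had an unadjusted p under it, beside 1 and 448 of all 13576 tested genes. DESeq2 called 2 (Col1a1 and Fbln5), beside 37 of 21249 rows with a count. Genes with few counts in control passed the filter only through the lines, which can raise the counts above control in these lists and among all tested genes.

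**Figure D4:**
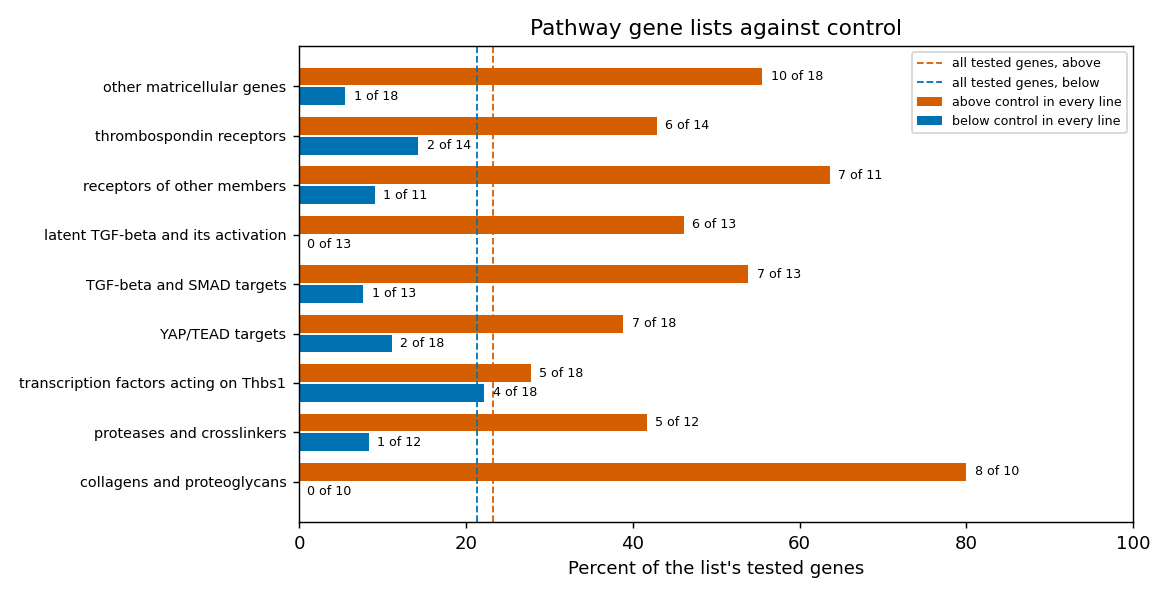
For each pathway list, the percent of its tested genes above (orange) or below (blue) control in every line, with the counts beside the bars and dashed lines at the share of all tested genes (23.3% above, 21.3% below). Collagens and proteoglycans have 8 of 10 above, and transcription factors acting on Thbs1 have 5 of 18 above and 4 of 18 below.

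Markers of cell types that are known sources of matricellular proteins were read beside these results. The summed CPM of 8 fibroblast markers was 90.6 (control), 328 (M8), 575 (M32) and 104 (M83). Most of that sum was Col3a1 (68.5, 272, 479 and 70.8 CPM), and Pdgfrb had 424, 1250, 2341 and 574 counts. Of the 8 markers 4 were tested, and these 4 were above control in every line, beside 23.3% of all tested genes. Dcn, 1 of the 4, had 2, 13, 48 and 29 counts. Thy1 had 0 counts throughout, and Lum, Fap and Dpt had at most 8 in any library. In bulk RNA, more cells of a type and more RNA per cell cannot be told apart. The sum was highest in M32 and lowest in control, as Thbs1 was. M83 lay near control in the sum, which mostly reflects Col3a1, and at 5.18-fold in Thbs1. Single markers differed in M83, with log2 ratios to control of 0.05 (Col3a1), 0.26 (Pdgfrb), 1.12 (Pdgfra) and 2.83 (Dcn, few counts). Pdgfra had 137, 318, 196 and 339 counts, with M83 highest. The part of fibroblast-type RNA in the Thbs1, Sparc and collagen values was not tested.

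The 5 smooth muscle markers summed to 1.88, 9.10, 20.5 and 2.56 CPM, of which Acta2 gave 0.235, 6.99, 17.5 and 1.83. Des had 34, 42, 61 and 9 counts, with M83 below control, and Myh11 and Cnn1 had at most 3 counts in any library. For platelets, a rich source of thrombospondin-1, 6 markers summed to 1.22, 2.70, 3.87 and 3.46 CPM. Of these, 5 were tested, with 3 above and 0 below control in every line, beside 23.3% and 21.3% of all tested genes. Itga2b had 17, 39, 59 and 60 counts and Pf4 had 1, 0, 0 and 2. Counts were low, and 2 of the 5 tested markers had 0 counts in control. The 8 leukocyte markers summed to 35.3, 52.1, 51.3 and 38.7 CPM, nearly all of it Cd14, with Adgre1, Csf1r and Cd3e at 0 and Ptprc at 4, 1, 2 and 0 counts. The 7 endothelial markers summed to at most 1.14 CPM, with Emcn and Cldn5 at 0. Osteoblast markers, read because Spp1 and Sparc are abundant in bone, summed to 49.1, 43.8, 48.2 and 53.5 CPM, nearly all Runx2, with Bglap and Ibsp at 0. The 8 epithelial markers summed to 28.5, 64.1, 36.6 and 32.8 CPM, nearly all of it Krt18 (27.8, 63.0, 36.6 and 31.5 CPM). Epcam and Cdx2, defining genes of colon epithelium, had 0 counts in all 4 libraries.

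The genes whose 3 log2 ratios to control lay nearest to those of Thbs1, by root mean square difference over the 3 lines among 10463 genes with at least 50 counts in control, were Ces2g (0.33), Lypd5 (0.49), Fbln5 (0.54), Ccdc80 (0.59) and Cryab (0.62). Ces2g, a carboxylesterase gene, had 114, 450, 770 and 738 counts, and Lypd5 had 144, 956, 1309 and 537. Ccdc80, which encodes a matrix protein, had 207, 616, 1476 and 766, and Cryab, a small heat shock protein gene, 285, 1475, 1313 and 1898. These 5 lie on other chromosomes than Thbs1. Around Thbs1, 6 genes within 500 kb were tested, 3 above and 2 below control in every line, beside 23.3% and 21.3% of all tested genes. Gm13986, which starts 674 bases away on the opposite strand, had 2, 11, 19 and 15 counts, in the same order of libraries as Thbs1 but with few counts. Eif2ak4 (838, 1040, 1337 and 1106 counts) and Bmf (18, 25, 62 and 46) also had the library order of Thbs1. Srp14 had 1664, 2172, 1596 and 1940 counts, Gpr176 12, 0, 2 and 6, and Bub1b 4529, 4078, 4717 and 3212. Over the 1090 tested genes of chromosome 2 the median log2 ratios were 0.03, -0.02 and 0.02, beside 2.05, 3.15 and 2.37 for Thbs1. Thbs1 was picked for its rise, and the part of a chromosome-wide level in its ratios was not tested.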

How the data were processed

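The authors deposited 1 table of raw counts per gene as whole numbers, without normalisation, with 1 column per sample. Reads were placed on GRCm38 (per the submitters' processing notes), and libraries were made with poly(A) selection, per the labels' protocols. The aligner, counting tool, annotation and strand setting were not given in the sources used here. Symbols come from the table, and positions, exon lengths and overlaps from GENCODE vM21, which holds 41434 of the 41457 row identifiers. The fit used edgeR 4.0.16 (R 4.3.3, TMM, filterByExpr, quasi-likelihood F-test, 13576 genes, 2 residual degrees of freedom, Benjamini-Hochberg adjustment over all tested genes, threshold 0.05). DESeq2 1.42.0 was an alternative. Log2 ratios of single lines used a prior count of 2. The members, lists, tests and rules were chosen with earlier results of these data known. Genes named were all 9 members, up to 3 per direction from each list (largest mean log2 ratio among genes on 1 side of control in every line, at least 50 counts in some library), the 5 genes nearest to Thbs1, and tested genes within 500 kb of Thbs1. Other list genes given with counts (Cd47, Cd36, Cd44, Ctgf, Thbs4, Comp and markers) were chosen after their values were seen. The scripts were tested on simulated data. The labels do not say whether repeats were separate cultures.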

Additional observations from a re-analysis of the deposited data

Results flagged for a closer look

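Tnc was the only member with lines more than 2-fold on both sides of control. Its log2 ratio to control was 1.95 in M8 and 2.16 in M83 but -1.54 in M32. The lines have 1 library each, so the difference between them was not tested. The Tnc counts behind these ratios were 138 (control), 602 (M8), 49 (M32) and 706 (M83).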

How the results depend on the processing

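The lines' log2 differences of the members were recomputed with other scaling factors, without the filter, with DESeq2 and without each line. Of 49 alternatives, 48 kept the direction and, where a test was given, the side of the threshold. Those of Thbs1 are counted among them but carry no test, and their direction follows from how Thbs1 was picked. Fn1 reversed to 0.09 without M8, and ranged from -0.19 to 0.09 when 1 line was left out. Spp1 ranged from -1.25 (without M8) to -0.48 (without M32), Tnc from 1.06 (without M83) to 2.05 (without M32), and Thbs1 from 2.19 to 2.81. Without the filter edgeR called 2 genes, and DESeq2 called 37 (33 higher) among 21249 rows with a count, in place of 1, and 0 of the 6 tested members were among them. Library size alone moved log2 ratios by up to 0.06. It left 0 members 2-fold lower in M83 in place of 1 (Spp1), and 6 of 7 members with the same order of libraries. It moved the M83 log2 ratios of Sparc to 0.17, Fn1 to 0.13 and Spp1 to -0.98, and 81 of 84 single-line alternatives moved by less than counting error. Without the filter, genes below control went from 1 to 2 in 3 lists, from 0 to 1 among collagens and proteoglycans, and from 2 to 3 among thrombospondin receptors. Transcription factors above control went from 5 to 7 with library size alone and to 6 without the filter, and other matricellular genes above control from 10 to 11 without the filter. With 1 control library, leaving out control was not possible. No paired analysis was possible because the control group has 1 library and the labels give no shared replicate numbers.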
